A study of Mus musculus with 12 samples.

Results

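The 55 genes described here act in canonical Wnt signalling in mouse, and they were chosen by name, with earlier results of these data known. A row of the deposited count table belonged to the group when its transcript mapped, in the GENCODE annotation of the GRCm38 genome, to the symbol of a Wnt ligand, receptor, secreted inhibitor, part of the β-catenin destruction complex, nuclear factor or feedback target. Each of the 55 symbols matched 1 transcript of the 22467 in the table, and all 55 were among the 12576 transcripts with enough ribosome footprints to be tested. The study compared whole embryos at embryonic day 8.5, 3 with the genotype Rpl10a +/+ (wild type) and 3 with Rpl10a LOF/LOF, on a C57BL/6 background. The LOF allele, made with CRISPR/Cas9, lacks part of the intron between the exons 1 and 2 of Rpl10a, and the intron sequence that remains is translated, so that the ribosomal protein RPL10A carries extra residues at its N-terminus. Every cell of the embryo carries this allele, so no tissue was targeted. From each single embryo, never pooled, came 1 library of ribosome-protected fragments (RPFs), which counts ribosomes on coding sequences, and 1 RNA-seq library. The sex of the embryos was not determined in the study.

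In canonical Wnt signalling, a secreted Wnt protein binds a Frizzled receptor and the co-receptor LRP5 or LRP6. Without the ligand, a destruction complex of AXIN, APC and the kinases GSK3 and CK1 marks β-catenin for degradation, and receptor engagement stops this, so that β-catenin enters the nucleus and activates genes together with TCF and LEF factors. In the embryo at this stage, Wnt ligands of the primitive streak and tail bud keep the axial progenitors and the presomitic mesoderm going, from which the trunk and tail are built.

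The RPF libraries held between 7041357 and 10863499 counts and the RNA libraries between 9132521 and 26561843. Rpl10a itself, the mutated gene, ran from 1562 to 1679 CPM, counts scaled to a common library size, in wild-type RPF libraries and from 940 to 1125 CPM in Rpl10a LOF/LOF ones. Its RNA ran from 789 to 870 CPM in wild type and from 695 to 753 CPM in Rpl10a LOF/LOF. The log2 fold change was -0.64 in RPFs (FDR = 0.00689 in edgeR) and -0.23 in RNA (FDR = 0.0678), both past an FDR of 0.1. Summed RPF counts of Y-linked genes were 163 to 183 CPM in the wild-type embryos and 154 CPM in Rpl10a LOF/LOF replicate 2, against 9.09 and 0.384 CPM in replicates 1 and 3, so genotype and Y-linked counts are partly confounded. All 10 visceral endoderm markers were lower in Rpl10a LOF/LOF RPFs (8 of them past an FDR of 0.1), and their summed level was 6426 to 8445 CPM in wild type and 2279 to 4840 CPM in Rpl10a LOF/LOF. The 6 primitive erythroid markers were all higher (3 past that FDR), at 834 to 2804 CPM in wild type and 3501 to 5757 CPM in Rpl10a LOF/LOF. The 6 cardiac markers were higher too (2 past that FDR), at 688 to 807 against 932 to 1173 CPM, while 0 of the 8 anterior neural plate markers and 0 of the 5 trophoblast and decidua markers tested passed (edgeR, with 0 and 1 at an unadjusted p under 0.05). In RNA, all 10 visceral endoderm markers were lower past the FDR, 1 of 6 erythroid and 4 of 6 cardiac markers were higher past it, and 0 of the trophoblast and decidua and 0 of the neural plate markers passed (edgeR, with 1 and 2 at an unadjusted p under 0.05). In these bulk libraries, fewer cells of a type and less RNA per cell cannot be told apart. None of these markers is a member of the Wnt group, and their part in the members' values was not tested.

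β-catenin acts on DNA through TCF and LEF proteins, which bind short motifs such as CTTTGAT and CTTTGAA. To show what such a motif looks like at a gene with values below, stretches upstream of start sites are given here from RefSeq (build GRCm38.p6), 5′ to 3′ on the strand of the gene, with the motif or its reverse complement in capitals. They belong to Sp5, a feedback target, Gsk3a, a kinase of the destruction complex, and Msgn1 and T, factors of the presomitic mesoderm and primitive streak that are known targets of the pathway but not members of the group.
Sp5, chr2:70474795-70474849, plus strand: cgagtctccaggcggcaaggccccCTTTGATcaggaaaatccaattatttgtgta
Gsk3a, chr7:25237979-25238033, minus strand: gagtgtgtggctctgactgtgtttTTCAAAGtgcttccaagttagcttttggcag
Msgn1, chr12:11209061-11209175, minus strand: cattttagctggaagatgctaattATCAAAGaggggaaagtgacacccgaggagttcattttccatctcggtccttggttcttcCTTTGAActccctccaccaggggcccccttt
T, chr17:8434173-8434218, plus strand: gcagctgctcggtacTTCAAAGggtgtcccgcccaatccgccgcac
The motif started 104 bases upstream of the Sp5 start site and 158 bases upstream for Gsk3a. In Msgn1 there were 2 motifs, 203 and 143 bases upstream, and in T the motif lay 235 bases upstream. Start sites were found for 36 of the 55 members. Searching 250 bases upstream on both strands for either motif, 4 of their 53 start sites held one (7.55%), against 7.48% of all 32851 start sites. Of 10 start sites of the embryonic targets described last, found for 9 of 14 genes, 3 held one (30%), at Msgn1, T and Mycn. The 4 of the members were at Sp5, Gsk3a, Dkk1 and Sp8. The matches at Dkk1 and Sp8, and that at the target Mycn, lay inside the transcript counted in the table. A match of letters is a description and not a binding site.

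In wild-type embryos the members spanned a wide range of ribosome density. Levels were compared between genes as RPF CPM per kilobase of coding sequence and RNA CPM per kilobase of transcript, as means of 3 embryos. Ctnnb1, which encodes β-catenin, had the highest RPF level at 675 ± 20.8 CPM per kilobase (SD, n = 3), followed by the CK1 kinase gene Csnk1a1 at 251 ± 10.5, the Wnt cargo receptor gene Wls at 196 ± 12.1 and the secreted inhibitor gene Sfrp1 at 112 ± 4.48. At the other end were Rnf43, a ubiquitin ligase that removes Frizzled from the membrane, at 0.582 ± 0.138, Apc2 at 0.9 ± 0.151 and Wnt3 at 1.63 ± 0.615. The median member stood at 13.7 and the median of all transcripts at 13.9 CPM per kilobase.

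The RPF level per kilobase divided by the RNA level per kilobase, a wild-type measure of ribosome load, was below the median of all transcripts (1.7) in 35 of the 55 members, and in 21 of them it was also below the lower quartile of 0.994. The roles are given as a description. All 4 secreted inhibitors lay above the median, from 2.27 for Frzb to 4.2 ± 0.13 for Dkk1 (SD, n = 3), and Wnt1 had the highest ratio of the group at 4.63 ± 1.37. Of the 11 receptors 9 lay below it, with Fzd10 at 0.49 ± 0.02, Kremen1 at 0.443 ± 0.0329, and the exceptions were Fzd7 at 1.88 ± 0.0701 and Lgr5 at 2.99 ± 0.431. Of the 8 feedback targets 6 lay below it, with both ubiquitin ligases near the bottom, Znrf3 at 0.42 ± 0.0204 and Rnf43 at 0.433 ± 0.157. The lowest ratio belonged to Ctbp1, which encodes a transcriptional co-repressor, at 0.213 ± 0.015. Among the TCF and LEF factors, Lef1 (2.39), Tcf7l1 (2.7) and Tcf7l2 (2.64) lay above the median and Tcf7 (1.03) below. These ratios rest on the annotated length of the 1 transcript per gene that was counted.

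**Figure D1:**
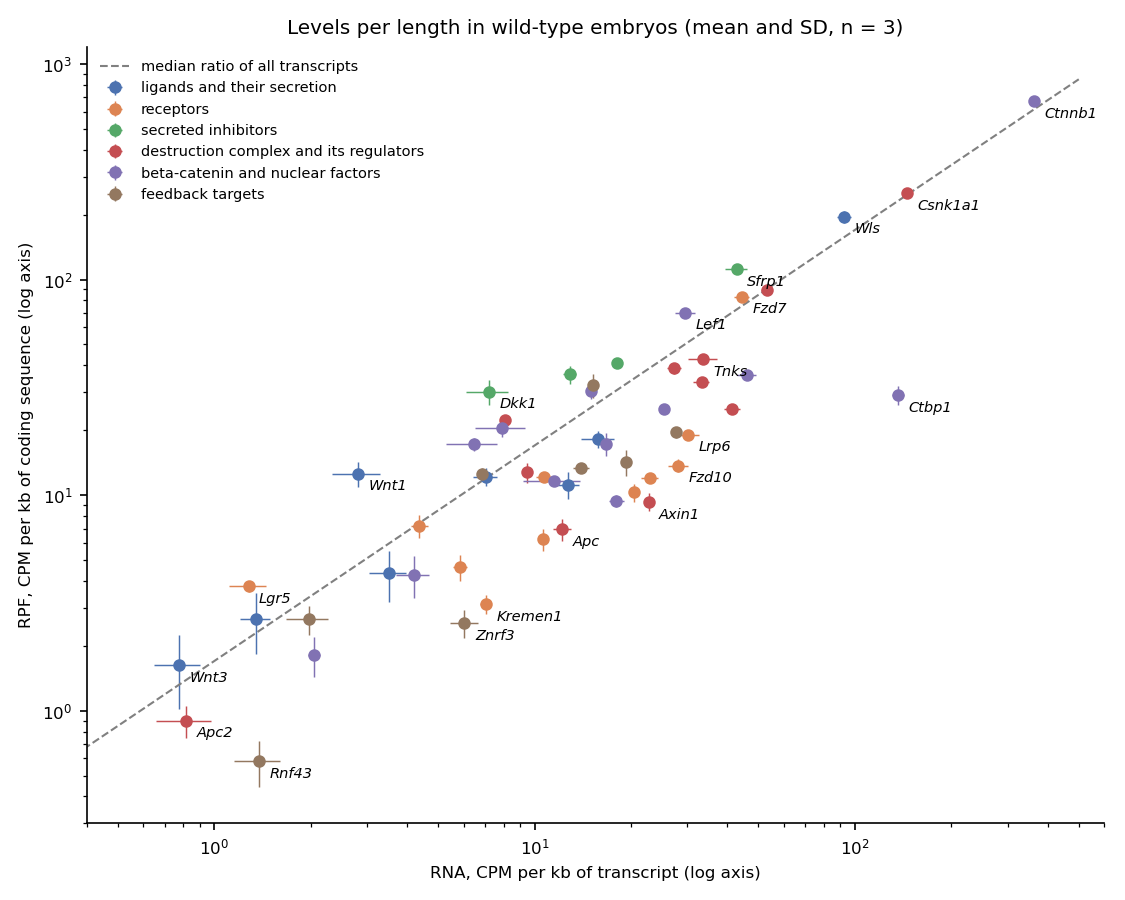
Ribosome footprints (RPF CPM per kilobase of coding sequence, log axis) against RNA (CPM per kilobase of transcript, log axis) of the 55 members in wild-type embryos; points are means of 3 embryos, bars are SDs, colours are roles and the dashed line is the median ratio of all transcripts (1.7). The points run from Rnf43 at 0.582 to Ctnnb1 at 675 RPF CPM per kilobase, and Ctbp1 lies farthest below the line.

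Whether loss of normal RPL10A changed the translation of these genes was asked with 3 comparisons of Rpl10a LOF/LOF with wild type: RPFs, RNA, and the RPF/RNA ratio, which is the RPF change beyond the RNA change (translation efficiency). Each was tested with edgeR's quasi-likelihood test over all 12576 transcripts, with Benjamini-Hochberg adjustment (FDR) and a threshold of 0.1. Of the members, 0 of 55 passed in RPFs, where 2.19% of all transcripts did (5 members had an unadjusted p under 0.05, or 9.09%, against 13.7% of all transcripts). DESeq2 and limma-voom also called 0 members in RPFs (2.12% and 2.58% of all transcripts), and limma-voom with sva called 1 (6.55% of all). In RNA 3 of 55 passed (5.45%, against 5.02% of all), namely Wnt6 and Apc, which rose, and Apc2, which fell. At an unadjusted p under 0.05 there were 5 members in RNA (9.09%, against 17.0% of all). In the RPF/RNA ratio 0 of 55 passed in edgeR, DESeq2, limma-voom and limma-voom with sva. In edgeR 0% of all transcripts passed, and 3 members (5.45%) had an unadjusted p under 0.05 in the ratio, against 4.44% of all. With the embryo as a block, 0 passed in the ratio and 5 members (9.09%) had an unadjusted p under 0.05, against 6.94% of all transcripts in that fit.

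The signs of the members' differences are given beside those of all transcripts. In RPFs 35 of 55 members (63.6%) had a log2 fold change below 0, with a median of -0.05, against 49.1% and 0.00 over all transcripts. In RNA 25 of 55 (45.5%) were below 0 with a median of 0.02, against 50.6% and 0.00. In the RPF/RNA ratio 42 of 55 (76.4%) were below 0 with a median of -0.07, against 48% and 0.01. In 9 members (16.4%) every Rpl10a LOF/LOF embryo lay below every wild-type embryo in RPFs, as in 9.45% of all transcripts, and in 1 member, Axin2, every one lay above, as in 9.92%. For RNA there were 5 members each way, against 12.6% of all transcripts lower and 10.2% higher. For the ratio 7 members (12.7%) were lower without overlap, against 5.22% of all, and 0 were higher, against 6.85%. With Y-linked counts as a covariate, 27 of 55 were below 0 in RPFs with a median of 0.01, and 26 in the ratio with 0.02. Here and below, the genotype difference in such a fit rests mostly on Rpl10a LOF/LOF replicate 2. Replicates 1 and 3 differ from wild type in Y-linked counts too, so sex and single embryos cannot be told apart there. Without Rpl10a LOF/LOF replicate 1 the ratio median was -0.01 with 32 members below 0. The 3 comparisons share libraries, so these counts are not independent of each other.

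The size of the effects that these data could have shown differs between members. The standard error of the log2 fold change ran from 0.06 to 0.37 in RPFs, from 0.05 to 0.22 in RNA and from 0.07 to 0.40 in the ratio. The ratio fit had no embryo block, so its standard errors and intervals leave out the pairing of each embryo's RPF and RNA libraries. The 95% interval lay wholly within 0.5 of 0 on the log2 scale for 39 members in RPFs, 48 in RNA and 38 in the ratio. It was widest for the sparsest genes, such as Rnf43, with 5 to 19 RPF counts per library.

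**Figure D2:**
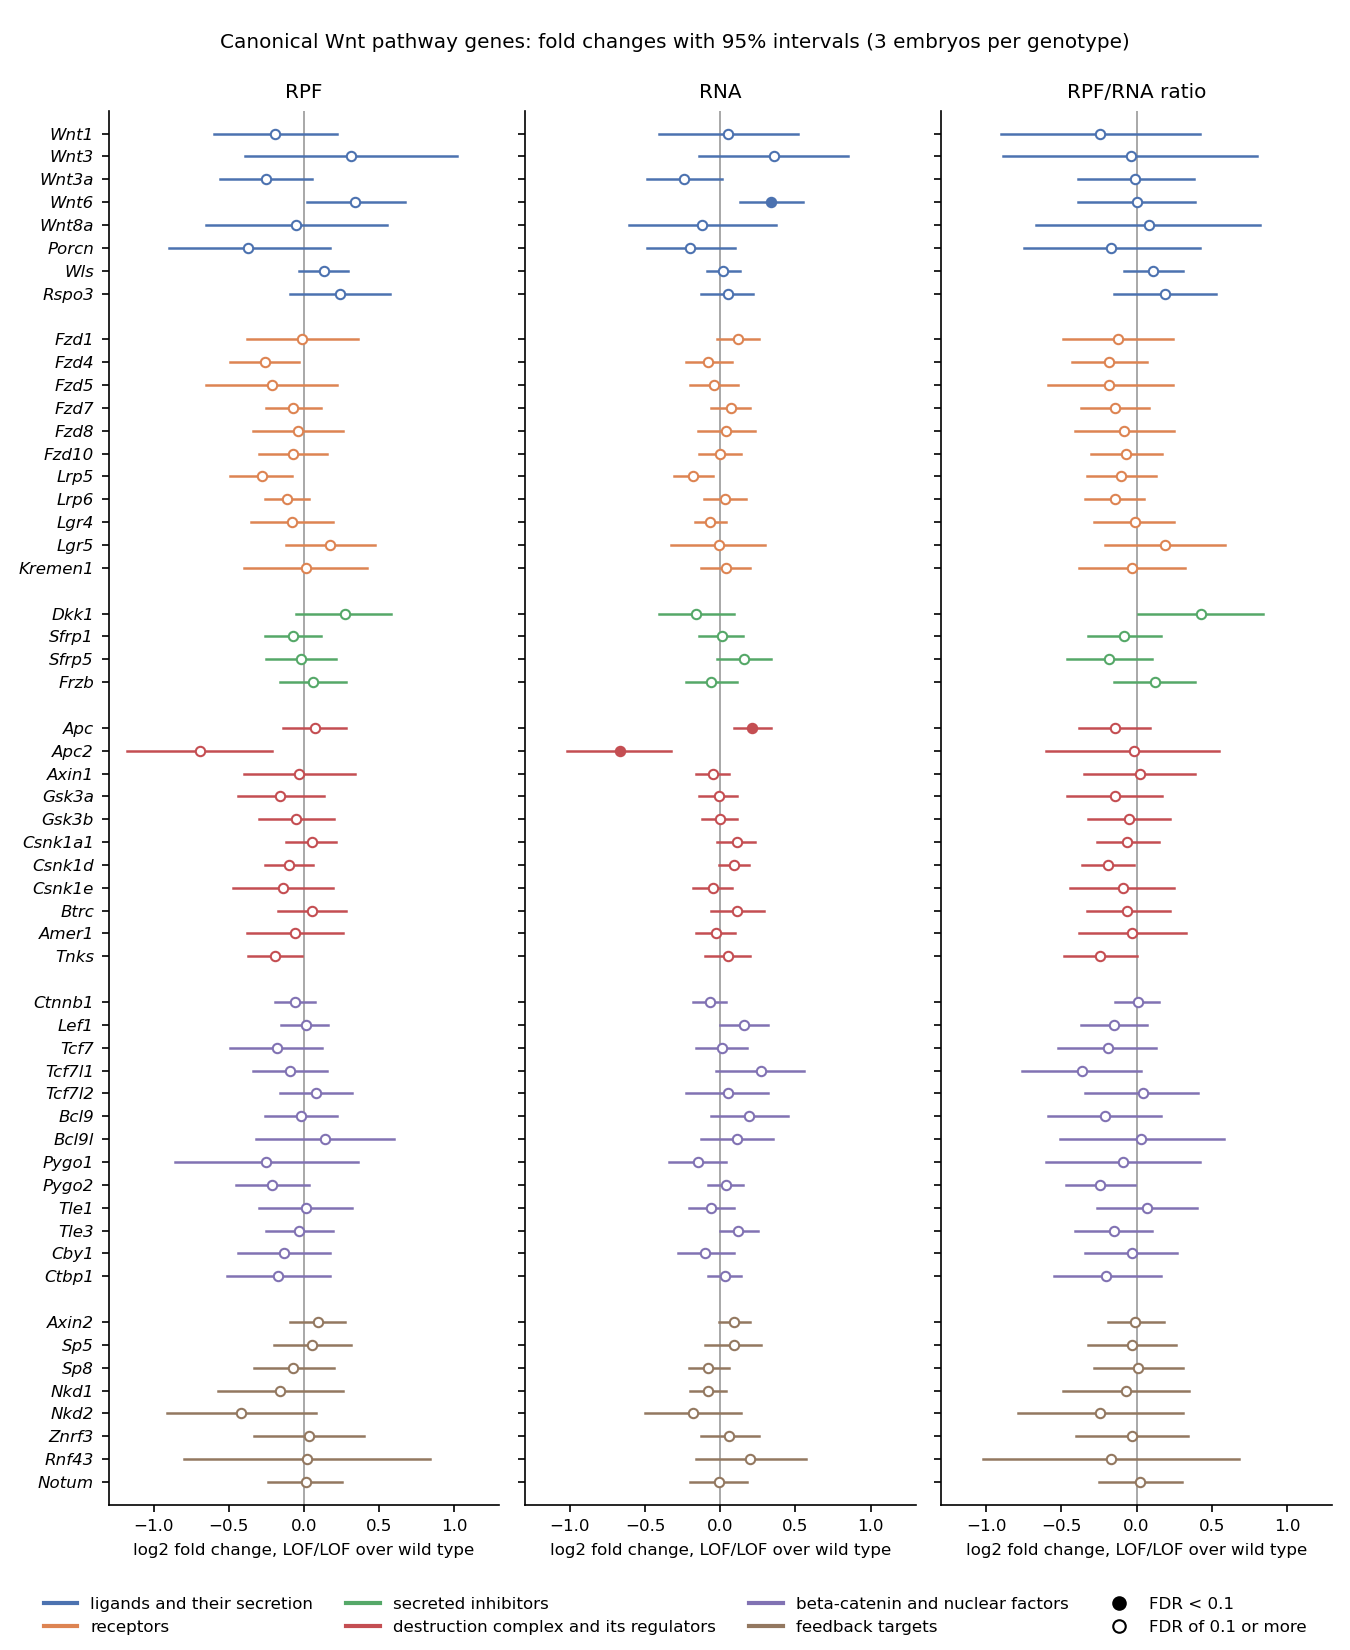
Log2 fold change (Rpl10a LOF/LOF over wild type) of each of the 55 members in RPFs, RNA and the RPF/RNA ratio, in rows grouped by role, with 95% intervals from edgeR; filled circles mark FDR below 0.1. Only Wnt6, Apc and Apc2 are filled, all in RNA, and the ratio panel has 42 of 55 circles left of 0.

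Among the 8 genes for Wnt ligands and their secretion, 1 rose in RNA, 0 passed in RPFs or in the ratio (edgeR; unadjusted p under 0.05 in 1 and 0), and 4 of 8 were below 0 in RPFs. Wnt6 encodes a Wnt ligand of the ectoderm, and its transcript (ENSMUST00000006716.7, 4 exons) lies on chromosome 1 from 74771892 to 74785322. Its RNA level was 30.5, 30.7 and 37.2 CPM in wild type (replicates 1, 2 and 3, in that order here and below) and 39.5, 44.9 and 40.6 CPM in Rpl10a LOF/LOF, and every Rpl10a LOF/LOF embryo lay above every wild-type one. The log2 fold change in RNA was 0.34 (standard error 0.09, FDR = 0.0933 in edgeR). Wnt6 RPFs were 17.5, 18.1 and 20.6 CPM in wild type and 18.2, 27.1 and 25.4 CPM in Rpl10a LOF/LOF, and replicate 1 overlapped the wild-type range. The log2 fold change in RPFs was also 0.34 (standard error 0.15, unadjusted p = 0.0415, FDR = 0.339 in edgeR), and the ratio was 0.00 (95% interval -0.39 to 0.39). The RNA call was lost with 5 of the 6 embryos left out (FDR 0.11 without Rpl10a LOF/LOF replicate 1, 0.216 without replicate 2, 0.146 without replicate 3, 0.301 without wild-type replicate 1 and 0.219 without replicate 2), and with Y-linked counts as a covariate (edgeR FDR = 0.281) or the replicate number as a block (0.124). Its log2 fold change was 0.28 to 0.45 over the left-out fits and 0.44 with the covariate. Fewer transcripts of any kind were called in these fits, 138 to 594 with an embryo left out and 35 (0.278%) with the covariate, against 631.

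Wls, which carries Wnt proteins to the cell surface, had the highest RPF level per kilobase of this role. Its RPFs were 322, 311 and 285 CPM in wild type and 338, 356 and 312 CPM in Rpl10a LOF/LOF. Replicates of the genotypes overlapped, and the log2 fold change was 0.13 (standard error 0.07, unadjusted p = 0.0959 in edgeR) in RPFs, 0.02 (standard error 0.05) in RNA and 0.11 (95% interval -0.08 to 0.31) in the ratio. Wnt3a, the ligand of the tail bud, had RPFs of 11.3, 13.5 and 11.7 CPM in wild type and 11.2, 10.4 and 9.13 CPM in Rpl10a LOF/LOF, all below wild type by a narrow margin. Its log2 fold changes were -0.25 in RPFs and -0.24 in RNA, neither of which passed (edgeR FDR = 0.465 and 0.309), and -0.01 in the ratio. Wnt3 and Wnt8a, ligands of the primitive streak, rested on 8 to 31 RPF counts per library, with RPF log2 fold changes of 0.31 and -0.05 whose intervals spanned -0.39 to 1.02 and -0.65 to 0.55. For Wnt1 the value was -0.19, for Porcn, the enzyme that attaches the lipid to Wnt proteins, -0.37, and for Rspo3, a secreted amplifier of the signal, 0.24.

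The 11 receptors and co-receptors were below 0 in 9 cases in RPFs (median -0.07), in 6 in RNA (median 0.00) and in 10 in the RPF/RNA ratio (median -0.10), and 0 passed the FDR in any of the 3 (edgeR; unadjusted p under 0.05 in 2, 1 and 0). With Y-linked counts as a covariate, a fit resting mostly on Rpl10a LOF/LOF replicate 2, the medians were 0.09 in RPFs and 0.08 in the ratio. In each, 5 of 11 were below 0. Over the fits that left out an embryo the RPF median ran from -0.13 (without wild-type replicate 3) to -0.06 and the ratio median from -0.12 to -0.02 (without Rpl10a LOF/LOF replicate 1). Lrp5 encodes a co-receptor, and its transcript (ENSMUST00000025856.16, 23 exons) lies on chromosome 19 from 3584828 to 3686556. Its RPFs were 59.9, 57.4 and 55.1 CPM in wild type and 41.5, 49.8 and 49.8 CPM in Rpl10a LOF/LOF, and the genotypes did not overlap. The log2 fold change in RPFs was -0.28 (standard error 0.09, unadjusted p = 0.0104, FDR = 0.198 in edgeR). Lrp5 RNA was lower in the same embryos, at 125, 120 and 111 CPM in wild type against 98.4, 105 and 110 CPM (log2 fold change -0.18, standard error 0.06, unadjusted p = 0.0113, FDR = 0.149 in edgeR), and the ratio was -0.10 (95% interval -0.33 to 0.13). Lrp5 passed the threshold in RPFs without Rpl10a LOF/LOF replicate 2 (FDR = 0.0668 in edgeR), in RNA without wild-type replicate 3 (FDR = 0.0988) or with a correction for coding-sequence GC content (FDR = 0.0914), and in both with limma-voom and sva (FDR = 0.0653 and 0.0806).

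Lrp6 encodes the other co-receptor. Its RPFs were 92.7, 91.8 and 89.0 CPM in wild type and 84.7, 82.9 and 85.4 CPM in Rpl10a LOF/LOF, without overlap, for a log2 fold change of -0.11 (standard error 0.07, unadjusted p = 0.119 in edgeR) and 0.03 in RNA. Fzd4, a Frizzled receptor gene, had 18.4, 18.3 and 19.5 RPF CPM in wild type and 15.7, 15.8 and 15.3 in Rpl10a LOF/LOF, which is a tight separation at a low level. The log2 fold change was -0.26 in RPFs (standard error 0.11, unadjusted p = 0.0316, FDR = 0.305 in edgeR) and -0.08 (standard error 0.07) in RNA, where the genotypes overlapped.

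Fzd7, the receptor gene with the highest RPF level per kilobase, had RPFs of 141, 141 and 132 CPM in wild type and 138, 116 and 140 CPM in Rpl10a LOF/LOF, with replicate 2 alone below the others. Its log2 fold change was -0.07 in RPFs (95% interval -0.25 to 0.11), 0.07 in RNA and -0.14 in the ratio. The remaining Frizzled genes, Fzd1, Fzd5, Fzd8 and Fzd10, had RPF log2 fold changes from -0.21 to -0.01. Of the receptors for R-spondins, Lgr4 had -0.08 and Lgr5 0.17, and Kremen1, the receptor of Dickkopf proteins, had 0.01.

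Of the 4 secreted inhibitors, which bind Wnt proteins or their co-receptors outside the cell, 2 were below 0 in RPFs, 2 in RNA and 2 in the ratio, and 0 passed the FDR (edgeR; unadjusted p under 0.05 in 1, for the ratio). Dkk1 encodes a protein that blocks LRP5 and LRP6. Its RPF/RNA ratio was 1.31, 1.35 and 1.27 in wild type and 1.96, 1.32 and 1.97 in Rpl10a LOF/LOF, so replicates 1 and 3 stood above all wild-type embryos and replicate 2 among them. The log2 fold change in the ratio was 0.43 (standard error 0.20, unadjusted p = 0.0457, FDR = 1 in edgeR). It was 0.05 with Y-linked counts as a covariate, on which replicates 1 and 3 also differ from the other 4 embryos. Dkk1 RPFs were 19.7, 23.2 and 25.6 CPM in wild type and 29.3, 22.2 and 30.6 CPM in Rpl10a LOF/LOF (log2 fold change 0.27, standard error 0.14), and they passed without replicate 2 (0.40, FDR = 0.0713 in edgeR). Its RNA was close in both genotypes, at 15.0, 17.2 and 20.2 CPM against 15.0, 16.9 and 15.5 CPM (log2 fold change -0.16, standard error 0.11).

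Sfrp1, the inhibitor gene with the highest RPF level per kilobase, had RPFs of 97.4, 103 and 95.4 CPM in wild type and 94.3, 83.8 and 103 CPM in Rpl10a LOF/LOF. The genotypes overlapped, and its log2 fold change was -0.07 in RPFs (95% interval -0.26 to 0.11) and 0.01 in RNA (95% interval -0.14 to 0.15). Sfrp5 had an RPF log2 fold change of -0.02 and Frzb of 0.06, with edgeR intervals of -0.25 to 0.21 and -0.16 to 0.28.

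In the 11 genes of the destruction complex and its regulators, 8 were below 0 in RPFs (median -0.06), 6 in RNA (median 0.00) and 10 in the ratio (median -0.06). In RNA 1 rose and 1 fell, and 0 passed in RPFs or the ratio (edgeR; unadjusted p under 0.05 in 2 and 1). With Y-linked counts as a covariate 5 of 11 were below 0 in RPFs, with a median of 0.05, and 6 in the ratio, with -0.10. The medians without Rpl10a LOF/LOF replicate 1 were -0.02 in RPFs and -0.01 in the ratio, and those without replicate 2 were -0.19 in both. The genes that changed were both APC genes, which encode scaffolds of the complex, and they changed in opposite directions. Apc2, the form found mostly in neural tissue, is encoded by ENSMUST00000020349.6 (14 exons) on chromosome 10 from 80301820 to 80318256. Its RNA was 6.1, 8.98 and 7.18 CPM in wild type and 4.46, 4.93 and 4.93 CPM in Rpl10a LOF/LOF, without overlap, and fell, with an RNA log2 fold change of -0.67 and FDR = 0.053 in edgeR (standard error 0.16). Apc2 RPFs were 4.94, 6.44 and 6.88 CPM in wild type and 3.06, 3.37 and 4.57 CPM in Rpl10a LOF/LOF, again without overlap, at 54 to 66 counts per wild-type library and 21 to 48 per Rpl10a LOF/LOF library. The summed RNA level of the 8 anterior neural plate markers was 118 to 126 CPM in wild type and 104 to 123 CPM in Rpl10a LOF/LOF, with 3 of 8 below 0 and Sox1 (-0.32, unadjusted p = 0.00726 in edgeR) and Otx2 (-0.20, unadjusted p = 0.0445) the lower ones at that p, and their part in the Apc2 values was not tested.

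The RPF log2 fold change of Apc2, -0.69 (standard error 0.22), was the largest of any member and was close to that of its RNA, but did not pass (unadjusted p = 0.00828, FDR = 0.18 in edgeR), and the ratio was -0.02 (95% interval -0.60 to 0.55). Apc, the widely expressed scaffold, is encoded by ENSMUST00000079362.11 (16 exons) on chromosome 18 from 34220984 to 34322552. Its RNA was 147, 167 and 154 CPM in wild type and 187, 174 and 184 CPM in Rpl10a LOF/LOF, without overlap, and rose, with an RNA log2 fold change of 0.21 and FDR = 0.0832 in edgeR (standard error 0.06). Apc RPFs were 51.6, 59.3 and 65.4 CPM in wild type and 59.6, 61.1 and 63.9 CPM in Rpl10a LOF/LOF, with overlap and a log2 fold change of 0.07 (95% interval -0.14 to 0.28). In the ratio every Rpl10a LOF/LOF embryo lay below every wild-type one for Apc (-0.14, standard error 0.11, unadjusted p = 0.214 in edgeR).

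The RNA calls of both genes depended on single embryos. Apc2 was lost without Rpl10a LOF/LOF replicate 1 (FDR = 0.131 in edgeR), without replicate 3 (0.115) and without wild-type replicate 2 (0.162), with log2 fold changes from -0.77 to -0.49 over the 6 fits. Apc was lost without Rpl10a LOF/LOF replicate 1 (FDR = 0.173), replicate 3 (0.172), wild-type replicate 1 (0.317) and replicate 3 (0.185), with values from 0.17 to 0.27. With Y-linked counts as a covariate the log2 fold change was -0.64 for Apc2 (edgeR FDR = 0.459) and 0.16 for Apc (FDR = 0.678), in the fit that called 0.278% of all transcripts. With the replicate number as a block Apc was lost (FDR = 0.146) and Apc2 passed (FDR = 0.0683), where 4.2% of all transcripts did.

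**Figure D3:**
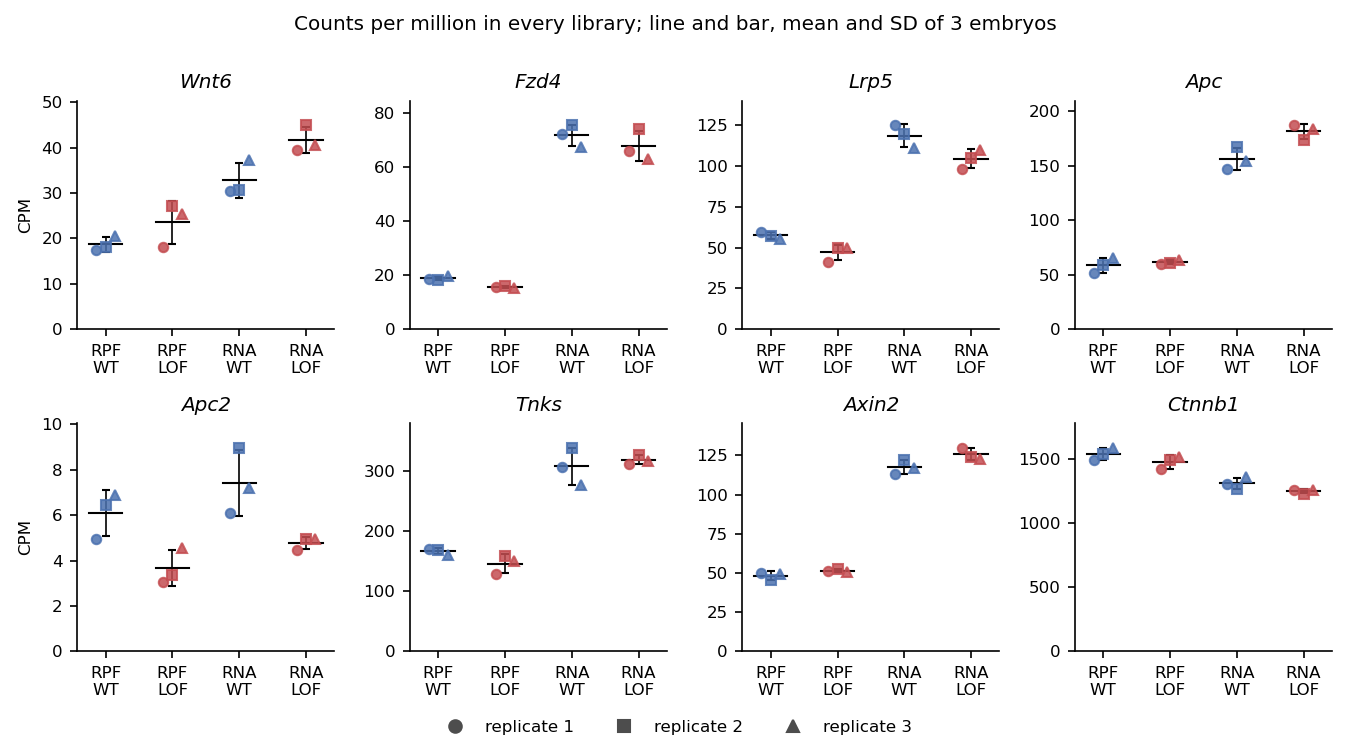
CPM of 8 members in every RPF and RNA library, from 0 up, for wild type (WT, blue) and Rpl10a LOF/LOF (LOF, red); symbols are replicates, and line and bar are mean and SD of 3 embryos. Apc2 is lower in both RPFs and RNA, Apc is higher in RNA alone, and Axin2 and Ctnnb1 stay close together.

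Tankyrase, encoded by Tnks, marks AXIN for degradation. Tnks RPFs were 170, 168 and 161 CPM in wild type and 129, 159 and 150 CPM in Rpl10a LOF/LOF, with replicate 1 farthest down and no overlap. The log2 fold change was -0.19 in RPFs (standard error 0.08, unadjusted p = 0.037, FDR = 0.326 in edgeR), 0.05 (standard error 0.07) in RNA and -0.24 in the ratio (standard error 0.11, 95% interval -0.48 to 0.00). Without Rpl10a LOF/LOF replicate 2 its RPFs passed (FDR = 0.0694 in edgeR).

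The kinase gene Csnk1d had an RPF/RNA ratio of 0.54, 0.53 and 0.568 in wild type and 0.486, 0.503 and 0.443 in Rpl10a LOF/LOF, without overlap (log2 fold change -0.19, standard error 0.08, unadjusted p = 0.0288, FDR = 1 in edgeR). This combined RPFs of 104, 108 and 107 CPM against 101, 104 and 92.6 CPM with RNA of 193, 203 and 188 CPM against 208, 207 and 209 CPM. Csnk1a1, the gene of the complex with the highest RPF level per kilobase, had 234, 218 and 236 RPF CPM in wild type and 237, 257 and 217 in Rpl10a LOF/LOF. These overlapped, with a log2 fold change of 0.05 (95% interval -0.12 to 0.21) in RPFs, 0.11 (standard error 0.06) in RNA and -0.06 in the ratio.

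Axin1, the scaffold on which the complex is built, had an RPF log2 fold change of -0.03 (95% interval -0.40 to 0.34) and -0.05 in RNA (-0.16 to 0.06). For the GSK3 genes the RPF values were -0.16 (Gsk3a) and -0.05 (Gsk3b), for Csnk1e -0.14, and for Btrc, which recognises the marked β-catenin, 0.05. Amer1, an X-linked gene whose protein binds APC at the membrane, had -0.06. None of these 6 passed in any comparison (edgeR).

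β-catenin and the 12 nuclear factors were below 0 in 9 of 13 cases in RPFs (median -0.06), 4 in RNA (median 0.04) and 9 in the ratio (median -0.15), and 0 passed the FDR (edgeR; unadjusted p under 0.05 in 0, 1 and 1). The ratio median was -0.08 without Rpl10a LOF/LOF replicate 1, -0.24 without replicate 2 and -0.05 with Y-linked counts as a covariate, and the RPF median ran from -0.14 (without replicate 2) to -0.01 (without replicate 1). Ctnnb1 RPFs were 1496, 1538 and 1590 CPM in wild type and 1419, 1496 and 1517 CPM in Rpl10a LOF/LOF, which overlapped. With up to 16361 RPF counts per library it had the highest counts of any member, with a log2 fold change of -0.06 in RPFs (95% interval -0.19 to 0.07), -0.07 in RNA (-0.18 to 0.04) and 0.01 in the ratio (-0.14 to 0.15).

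Lef1, a partner of β-catenin on DNA, had RNA of 93.1, 107 and 97.2 CPM in wild type and 119, 112 and 101 CPM in Rpl10a LOF/LOF, where replicate 3 overlapped (log2 fold change 0.16, standard error 0.07, unadjusted p = 0.048, FDR = 0.287 in edgeR). Its RPFs were 77.9, 77.8 and 74.7 CPM against 77.2, 80.8 and 73.5 CPM (log2 fold change 0.01, standard error 0.07). Tcf7l1, a repressor of the family, had the lowest change in the ratio of any member (log2 fold change -0.36, standard error 0.19, unadjusted p = 0.0695 in edgeR), from 0.27 in RNA and -0.09 in RPFs. In RPFs Tcf7 had -0.18 and Tcf7l2 0.08.

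Pygo2 encodes a co-activator held to β-catenin by BCL9. Its ratio was 0.355, 0.343 and 0.375 in wild type and 0.267, 0.313 and 0.316 in Rpl10a LOF/LOF, all lower (log2 fold change -0.24, standard error 0.11, unadjusted p = 0.0402, FDR = 1 in edgeR). Its RPFs were 28.2, 28.6 and 30.2 CPM against 22.2, 24.9 and 27.8 CPM (log2 fold change -0.21, standard error 0.11), and its RNA log2 fold change was 0.04. Pygo1 stood at -0.25 in RPFs on 10 to 23 counts per library. The adaptor genes Bcl9 and Bcl9l had RPF values of -0.02 and 0.14. The co-repressor genes Tle1, Tle3 and Ctbp1 had 0.01, -0.03 and -0.17, and Cby1, whose protein binds β-catenin and restrains it, had -0.13.

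Pathway output itself was not measured here, and the 8 feedback targets are genes that β-catenin switches on, most of which dampen the signal. Of these, 3 of 8 were below 0 in RPFs (median 0.01), 4 in RNA (median 0.03) and 6 in the ratio (median -0.03), and 0 passed in any (edgeR; 0 also had an unadjusted p under 0.05 in each, and DESeq2 and limma-voom called 0). The signs depended on single embryos: in RPFs 6 of 8 were below 0 without Rpl10a LOF/LOF replicate 3 or wild-type replicate 1, 5 without wild-type replicate 3 and 2 without Rpl10a LOF/LOF replicate 1 or wild-type replicate 2, and in the ratio 8 were without Rpl10a LOF/LOF replicate 3 and 3 without replicate 1. Axin2, a widely used reporter gene of the pathway, had RPFs of 50.1, 45.2 and 49.6 CPM in wild type and 51.5, 52.4 and 50.5 CPM in Rpl10a LOF/LOF, all higher by a narrow margin. Its log2 fold change was 0.09 in RPFs (standard error 0.08, 95% interval -0.09 to 0.27) and 0.09 in RNA (standard error 0.05, unadjusted p = 0.0771 in edgeR), and the ratio was -0.01.

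Sp8, the feedback target with the highest RPF level per kilobase, had 45.3, 51.0 and 39.6 RPF CPM in wild type and 48.8, 37.5 and 43.8 in Rpl10a LOF/LOF. The genotypes overlapped (log2 fold change -0.07, 95% interval -0.33 to 0.20). Sp5, whose upstream motif is printed above, had 15.6, 15.6 and 14.3 RPF CPM against 14.4, 17.1 and 15.6 CPM, a log2 fold change of 0.05 (95% interval -0.20 to 0.31). Notum, an enzyme that inactivates Wnt proteins, was as flat, at 0.01 in RPFs (-0.24 to 0.25) and -0.01 in RNA (-0.20 to 0.18). Nkd1 and Nkd2, which bind Dishevelled, had RPF values of -0.16 and -0.42 (95% intervals -0.57 to 0.26 and -0.91 to 0.08), and in Nkd2 every Rpl10a LOF/LOF embryo lay below every wild-type one. The ligase genes Znrf3 and Rnf43 had 0.03 and 0.02, the latter with an interval of -0.80 to 0.84. Up to 7.21% of the 30-base words of the Sp5 coding sequence occur in other transcripts of the table, the highest share of any member, and 48 of the 55 members share none.

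The Rpl10a LOF/LOF embryos did not move together. The median difference of the 55 members from the wild-type mean in the RPF/RNA ratio was -0.20 in Rpl10a LOF/LOF replicate 1, 0.03 in replicate 2 and -0.08 in replicate 3 (log2 scale), against 0.00, -0.03 and 0.04 in the wild-type embryos. Replicate 1, which also had the fewest RPF counts (7041357), was below the wild-type mean in 45 of 55 members, replicate 2 in 26 and replicate 3 in 32. In RPFs alone the medians were -0.12, 0.02 and -0.04 and in RNA 0.05, 0.01 and -0.03. By role, replicate 1 was lowest in the ratio for the nuclear factors (-0.34), the destruction complex (-0.24), the feedback targets (-0.21) and the receptors (-0.17), and it stood at 0.00 for the ligands and 0.02 for the secreted inhibitors.

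In RPFs, replicates 1 and 3 both lay below every wild-type embryo in 18 members (32.7%, against 20.1% of all transcripts). Replicate 2 did too in 9 of those 18, lay among the wild-type embryos in 3, and lay above them all in 6, which were Gsk3a, Gsk3b, Csnk1e, Tle1, Tle3 and Ctbp1. Of the 2526 such transcripts in the whole table, replicate 2 lay below in 1189, among the wild-type embryos in 714 and above in 623. Replicates 1 and 3 both lay above every wild-type embryo in 4 members (7.27%, against 19.7% of all transcripts), which were Wnt3, Dkk1, Btrc and Axin2. Csnk1e, a kinase gene, shows the pattern, with RPFs of 29.4, 31.3 and 28.6 CPM in wild type and 21.9, 34.4 and 24.3 CPM in Rpl10a LOF/LOF. With replicate 2 left out, 6 members passed in RPFs (edgeR), with Ctbp1 at -0.38, Csnk1e at -0.36, Lrp5 and Gsk3a at -0.32, Tnks at -0.25 and Dkk1 at 0.40, where 11.5% of all transcripts passed. Replicate 2 is also the Rpl10a LOF/LOF embryo with Y-linked counts like the wild type, and the part of sex in this pattern was not tested.

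**Figure D4:**
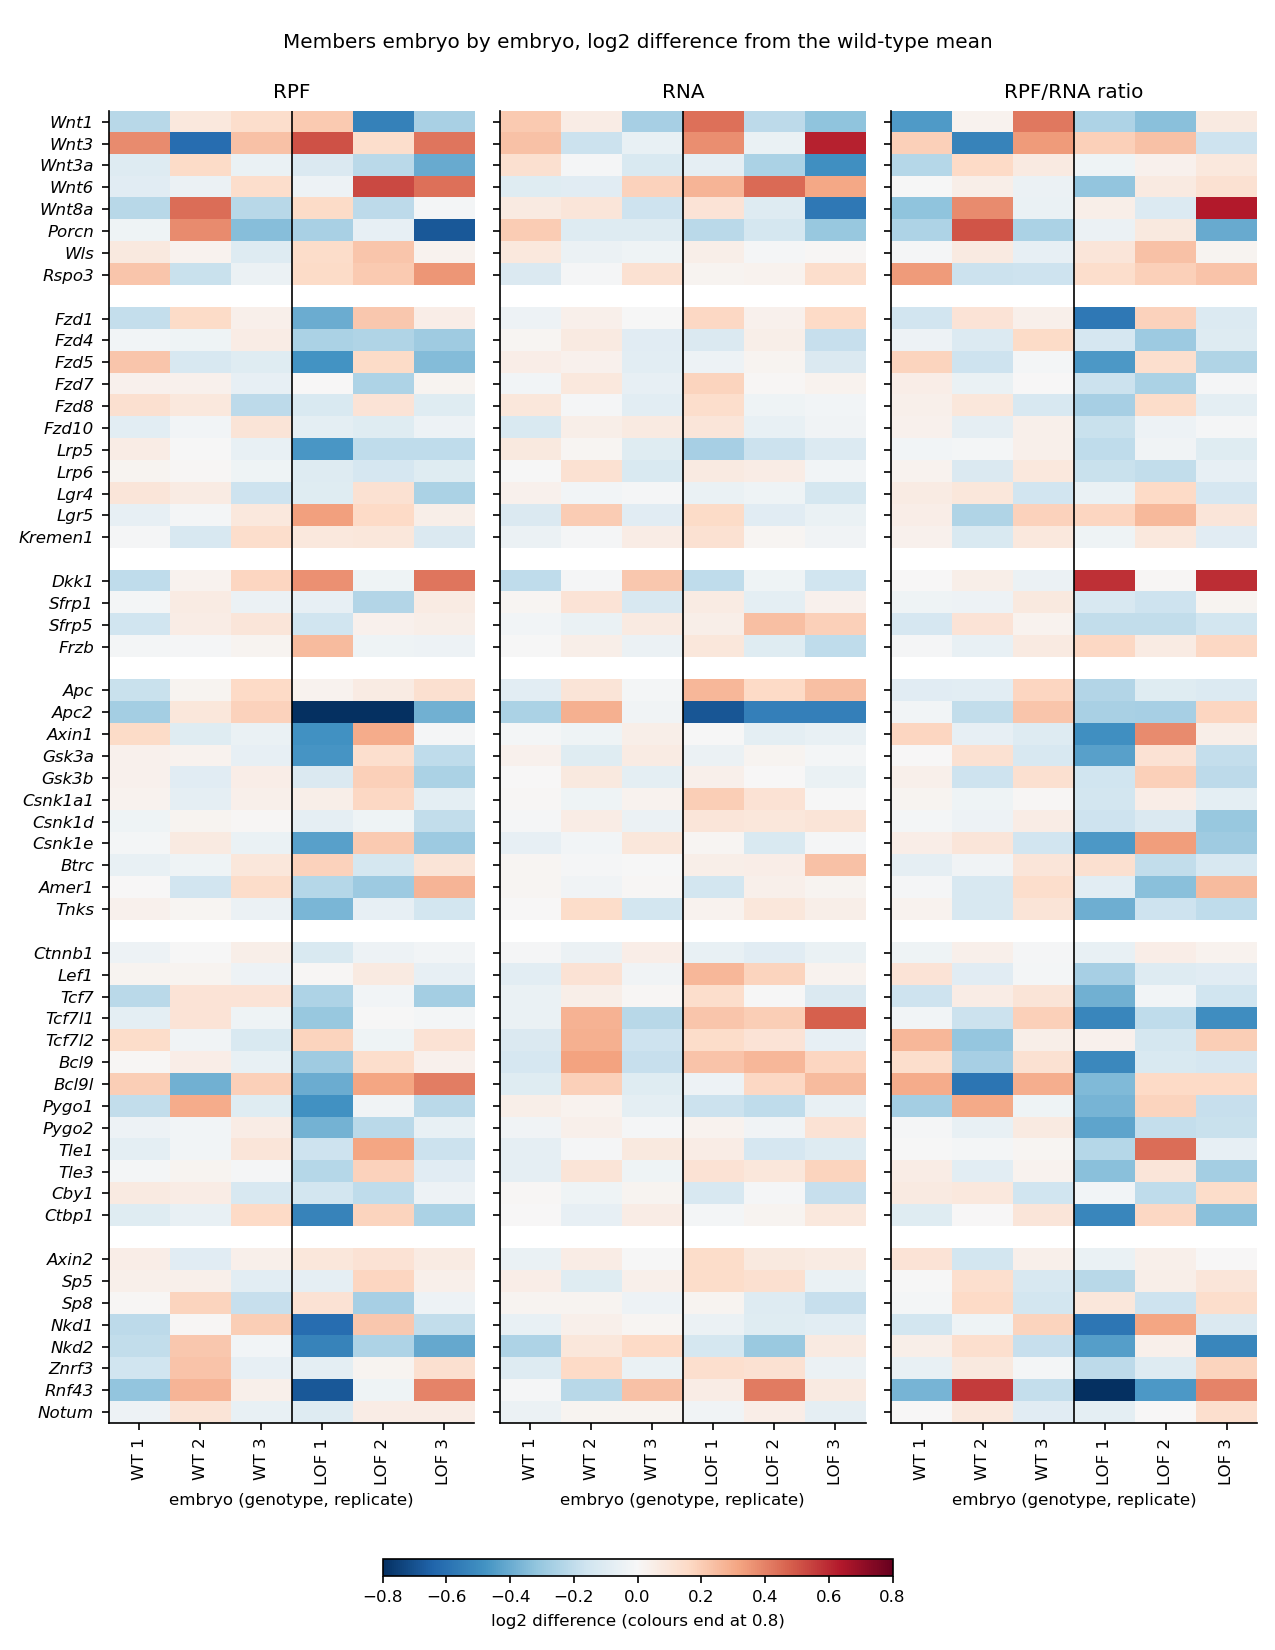
Log2 difference of each member from the wild-type mean in each of the 6 embryos, for RPFs, RNA and the RPF/RNA ratio, in rows grouped by role; red is higher and blue lower. Rpl10a LOF/LOF replicate 1 is mostly blue in the ratio (45 of 55 members), while replicate 2 is mixed (26 of 55), and the RNA panel is the palest.

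A sequence feature that the choice of members did not use was the base composition of the 5'UTR. The 54 members with a 5'UTR GC content had a median GC content of 71.5%, against 64.8% over 12112 transcripts, and the coding sequences 57.5% against 53.2%. Across these 54 members the RPF log2 fold change was lower at higher 5'UTR GC content (Spearman's rho = -0.439, against -0.184 over all transcripts), while rho was -0.218 for RNA and -0.239 for the ratio (0.00503 and -0.218 over all). Lrp5 (83.3% GC) and Wnt3a (80%) were among the members below 0, and Wnt3 (56.3%), Rspo3 (57.9%) and Dkk1 (60.8%) among those above. The scatter was wide: Kremen1, with the highest GC content (87.9%), had 0.01, Wnt6 (76%) and Apc (74.9%) were above 0, and Tnks (60%), Amer1 (57.8%) and Sp8 (55.3%) were below 0. Embryo by embryo, rho across the members for RPFs was -0.36, 0.02 and -0.39 in Rpl10a LOF/LOF and -0.32, 0.16 and 0.07 in wild type. Over all transcripts it was -0.30, 0.13 and -0.20 in Rpl10a LOF/LOF and -0.09, -0.02 and 0.10 in wild type. These correlations are across genes that share libraries, and they are given as a description. When 5'UTR GC was corrected for, an alternative chosen after seeing the data, 34 of 55 members were below 0 in RPFs with a median of -0.02. In the ratio, with the embryo as a block, 40 of 55 were below 0 with this correction (median -0.05) and 40 without it (median -0.07).

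**Figure D5:**
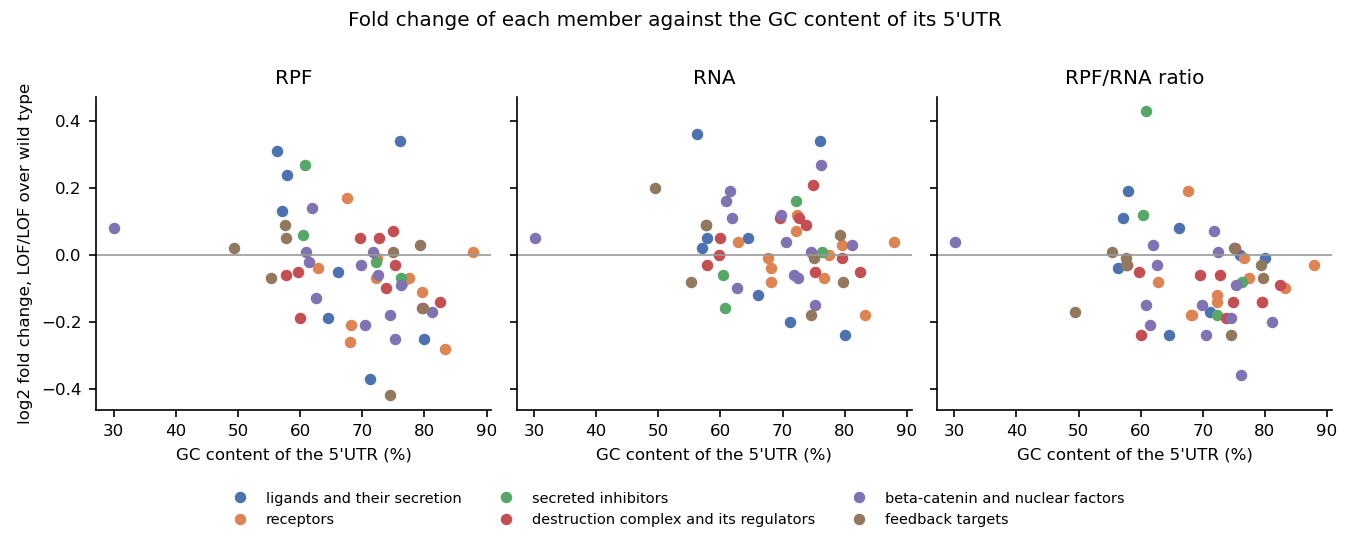
Log2 fold change (Rpl10a LOF/LOF over wild type) of the 54 members with a 5'UTR GC content (that of Apc2 was too short) against this content in percent, for RPFs, RNA and the RPF/RNA ratio; each point is a gene, coloured by role. The cloud slopes down in RPFs (rho = -0.439) and less in the other panels.

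Further genes of the pathway were examined as a surrounding. Of 80 names in 6 lists, 66 were tested, and 1 of the others, Sfrp3, is an older name of the member Frzb. In RPFs 1 rose and 2 fell (edgeR; 4.55% of the 66, against 2.19% of all transcripts, and 16 of 66 or 24.2% had an unadjusted p under 0.05, against 13.7%), and the others did not pass, with 38 of 66 below 0 and a median of -0.06. In RNA 0 passed, against 5.02% of all transcripts (edgeR; 9 of 66 or 13.6% had an unadjusted p under 0.05, against 17.0%), with 29 of 66 below 0. In the ratio 0 passed, as 0% of all transcripts did (edgeR; 6 of 66 or 9.09% had an unadjusted p under 0.05, against 4.44%), with 42 of 66 (63.6%, against 48% of all) below 0 and a median of -0.05. The gene that rose was Sostdc1, a secreted inhibitor that binds LRP proteins, with 1.74, 1.99 and 2.29 RPF CPM in wild type and 5.39, 3.26 and 4.28 in Rpl10a LOF/LOF (log2 fold change 1.09, standard error 0.26, FDR = 0.0791 in edgeR). Its RNA log2 fold change was 0.42 (standard error 0.26, FDR = 0.475 in edgeR). The RPF call was lost without Rpl10a LOF/LOF replicate 1 (FDR = 0.15), replicate 3 (0.233) and each wild-type replicate (0.346, 0.302 and 0.139), and with the Y-linked covariate (0.59), with log2 fold changes from 0.78 to 1.25 over the left-out and covariate fits.

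The 2 that fell belonged to a list of 14 embryonic targets of canonical Wnt outside the feedback loop, most of them genes of the tail bud. Like the other lists, it was chosen with earlier results of these data known, and its counts are a description. In this list 2 of 14 (14.3%) passed in RPFs, against 2.19% of all transcripts. At an unadjusted p under 0.05 in edgeR there were 6 (42.9%), against 13.7%. In RNA 0 passed, against 5.02%, and in the ratio 0, as over all transcripts. In RPFs 12 of 14 were below 0 with a median of -0.20, where 49.1% of all transcripts were. There were 9 in RNA with -0.06 (50.6% of all) and 11 in the ratio with -0.18 (48% of all). The RPF median was -0.13 without Rpl10a LOF/LOF replicate 3 and with Y-linked counts as a covariate (12 and 10 of 14 below 0), and the ratio median was -0.09 with the covariate. In RNA the median was -0.12 without Rpl10a LOF/LOF replicate 1 (13 of 14 below 0), -0.03 without replicate 3 and -0.04 with the covariate. Msgn1, a factor of the presomitic mesoderm, had 17.1, 19.3 and 17.4 RPF CPM in wild type and 11.4, 11.2 and 14.0 in Rpl10a LOF/LOF (log2 fold change -0.55, standard error 0.13, FDR = 0.0855 in edgeR). Its RNA was also lower, at 7.11, 7.02 and 7.71 CPM against 5.8, 5.59 and 7.18 CPM, and that difference did not pass (-0.26, standard error 0.13, FDR = 0.346 in edgeR). Dll1, the Notch ligand of the same tissue, had 51.2, 55.4 and 44.8 RPF CPM against 42.7, 32.1 and 31.2 CPM (log2 fold change -0.52, standard error 0.13, FDR = 0.0901 in edgeR) and -0.19 in RNA (standard error 0.06, FDR = 0.108). For T the RPF value was -0.28 (standard error 0.15, FDR = 0.44) and for Tbx6 -0.41 (standard error 0.11, FDR = 0.118). The call of Msgn1 was lost without Rpl10a LOF/LOF replicate 1 (edgeR FDR = 0.148), replicate 3 (0.125) and each wild-type replicate (0.29, 0.34 and 0.177). That of Dll1 was lost without Rpl10a LOF/LOF replicate 3 (0.298) and each wild-type replicate (0.346, 0.359 and 0.12). With Y-linked counts as a covariate the FDR was 0.235 for Msgn1 and 0.388 for Dll1. The log2 fold changes over these fits ran from -0.72 to -0.48 for Msgn1 and from -0.67 to -0.44 for Dll1. Of all transcripts, 276 were called in RPFs with every embryo, 12, 4 and 151 without wild-type replicates 1, 2 and 3, 191, 1449 and 40 without Rpl10a LOF/LOF replicates 1, 2 and 3, and 33 with the covariate.

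Of the 8 markers of posterior axial progenitors and presomitic mesoderm, 6 are also in this list, so the lists are not independent. All 8 were below 0 in RPFs, against 49.1% of all transcripts, and 2 passed the FDR (25%, against 2.19%), again Msgn1 and Dll1. The markers outside the list, Fgf8 and Cyp26a1, had RPF values of -0.18 and -0.31 (edgeR FDR = 0.579 and 0.288). The summed RPF level of the 8 was 220 to 250 CPM in wild type and 181 to 196 CPM in Rpl10a LOF/LOF. Their summed RNA level was 349 to 379 CPM against 321 to 349 CPM. The number of such cells in each embryo was not measured, and its part in the values of the targets was not tested. Beside these targets, the feedback target Axin2 (0.09) and the ligand gene Wnt3a (-0.25) of the same tissue had the values given above, and no test of the difference between these genes was made.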

How the data were processed

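The authors trimmed reads with cutadapt, used Bowtie2 to filter out structural RNAs, aligned what remained to GRCm38/mm10 transcripts and removed duplicates with UMI-tools. They deposited raw counts per transcript for 6 RPF and 6 RNA libraries, 1 transcript per gene, with RPFs counted on coding sequences less the first 15 and last 5 codons and RNA over whole transcripts. Transcripts with more than 0.75 CPM in 3 or more RPF libraries were tested. The study names voom, limma, sva and locfdr without the full model, so edgeR 4.0.16 (R 4.3.3) with TMM scaling and the quasi-likelihood test was used, with an FDR threshold of 0.1. DESeq2 1.42.0 and limma 3.58.1, alone or with 3 surrogate variables (sva 3.50.0), were alternatives, as were other filters and scalings, a replicate block, a Y-linked covariate, GC corrections and leaving out each embryo. The RPF/RNA ratio was the genotype by assay interaction over 12 libraries without a block. RPF and RNA libraries of an embryo come from the same animal and deviated together (r from 0.191 to 0.403 in all 6 embryos), so the embryo block was an alternative.

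All members were reported by role, in full when they passed the FDR in a comparison, had an unadjusted p under 0.05 in one, or had the highest wild-type RPF level per kilobase of a role. The members and lists were chosen with earlier results of these data known. Replicates are separate embryos. Columns that matched no sample numbered 0. Scripts were tested on simulated counts. Gene positions came from GENCODE, in which 21987 of the 22467 transcripts matched with their version and 477 with another, and promoters from RefSeq.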

Additional observations from a re-analysis of the deposited data

How the results depend on the processing

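Of the members, limma-voom with sva called 1 in RPFs (Lrp5), where it called 6.55% of all transcripts, and 7 in RNA (Wnt6, Apc, Apc2, Lrp5, Lef1, Bcl9 and Tle3), where it called 10.5% of all, and the Y-linked covariate called 0 in RNA, where it called 0.278% of all, and gave an RPF median of 0.01 and 26 members below 0 in the ratio; the cause was not tested. With an embryo left out, members called ranged from 0 to 6 in RPFs (6 without Rpl10a LOF/LOF replicate 2) and from 0 to 3 in RNA, and 0 passed in the ratio in any fit. Over those fits, 31 to 38 members were below 0 in RPFs, 21 to 28 in RNA and 32 to 43 in the ratio, and the medians ran from -0.07 to -0.02, from -0.01 to 0.04 and from -0.12 to -0.01. Replicate numbers did not pair the genotypes (r from -0.1 to 0.0819 between same-numbered embryos), and a replicate block left 0 members called in RPFs (2.49% of all transcripts) and 1 in RNA (Apc2, FDR = 0.0683 in edgeR; 4.2% of all). For the ratio the replicate block was instead the embryo itself, the source of both its libraries, and it left 0 members called, with 40 of 55 below 0. Depth limits the sparsest members, and for Rnf43, with 5 to 19 RPF counts per library, the RPF interval ran from -0.80 to 0.84.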
